A study of Mus musculus with 6 samples.

Results

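The interferon-stimulated genes are the genes that cells switch on when an interferon binds its receptor. Such genes were followed here together with genes of the receptor itself, as a list of 36 gene symbols. The list holds 2 chains of the type I interferon receptor, the factors that carry its signal to the nucleus, and antiviral effectors that they induce. All 36 symbols were found among the 55809 gene rows of the count tables, and all 36 were among the 16716 genes with enough counts to be tested. The list was drawn up by name and not from measured values, although results of these data were already known.

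The libraries are bulk RNA-seq of mast cells sorted from mouse skin at embryonic day 18.5, in 2 groups of 3. All animals were C57BL6J, of both sexes, and each library was a pool of 4 mice. Pregnant dams of the stress group were restrained under bright light in 3 daily sessions of 30 minutes. The stress ran from embryonic day 13.5 to 18.5 in the design text and from day 13 to 18 in the treatment protocol, and control dams were not disturbed. Cells of both groups were released from minced skin by enzymes at body temperature and sorted as CD45+ F4/80- CD64- CD117+ ST2+. The number of dams behind a pool is not in the labels, so the p-values describe variation among pools of fetuses that may share a litter.

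Type I interferons bind a receptor made of the IFNAR1 and IFNAR2 chains. Its kinases JAK1 and TYK2 phosphorylate STAT2 among other proteins, and STAT2 enters the complex ISGF3 with IRF9. ISGF3 binds the interferon-stimulated response element (ISRE) in the promoters of its targets. The targets include sensors and signalling proteins of the pathway itself, so that many of them are also low-level components of resting immune cells. Tissue mast cells carry the receptor and several of the sensors of viral nucleic acid.

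Each library held 51710555 to 74735139 reads counted in genes. All 12 mast cell markers listed were detected, and 7 of them rose in the stress group, beside 4.34% of all genes tested. All 12 had a log2 fold change above 0. In 9 of them every stress library was above every control, beside 16% of all genes tested. All 4 pigment cell markers rose too, with a median log2 fold change of 1.52 and a summed level of 12.7 to 18.6 CPM in the controls and 26.2 to 64.6 CPM under stress. Macrophage transcripts were present in every library although the sort gated out F4/80 and CD64. Adgre1, which encodes F4/80, stood at 244 to 438 CPM (reads of a gene scaled to a common library size), and Fcgr1, which encodes CD64, at 61.1 to 83.2 CPM. The summed level of the 16 macrophage and monocyte markers was 8673 to 9988 CPM in the controls, 6823 and 5847 in stress libraries 1 and 2, and 10620 in stress library 3. None of the 16 markers was at 0 in any library, and their median log2 fold change was -0.29, with 1 higher (Cd68) and 1 lower (Cx3cr1) past the test. Stress library 3 thus differed from the other stress libraries in its macrophage transcripts, and for several genes the fold change is also given without it. In a bulk sample, fewer cells of a type and less RNA per cell cannot be told apart.

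One of the 36 genes rose in the prenatal stress group and none fell. That gene was Ifit3, at 1.49-fold; 35 did not pass an adjusted p of 0.05 in edgeR's quasi-likelihood test over all genes. Of all genes tested, 6.19% passed, 4.34% as higher and 1.85% as lower, and 2.78% of the interferon-stimulated genes did. The fitted log2 fold changes ran from -0.38 (Gbp3) to 0.57 (Ifit3), with 25 above 0 and 11 below (50.8% of all genes tested were below 0). Their median was 0.13, beside -0.0039 for all genes. The 95% interval of the fold change lay inside a 1.5-fold change either way for 26 of the genes and inside 2-fold for all 36. In 7 genes every stress library was above every control (19.4%, beside 16% of all genes tested): Ifnar1, Ifnar2, Irf7, Usp18, Ifih1, Zbp1 and Ifit3. In 0 genes was every stress library below every control, beside 14.5% of all genes, and in 29 the groups overlapped. At an unadjusted p under 0.05 there were 8 higher and 1 lower of the 36 (22.2% and 2.78%, beside 13.3% and 11.6% of all genes).

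**Figure D1:**
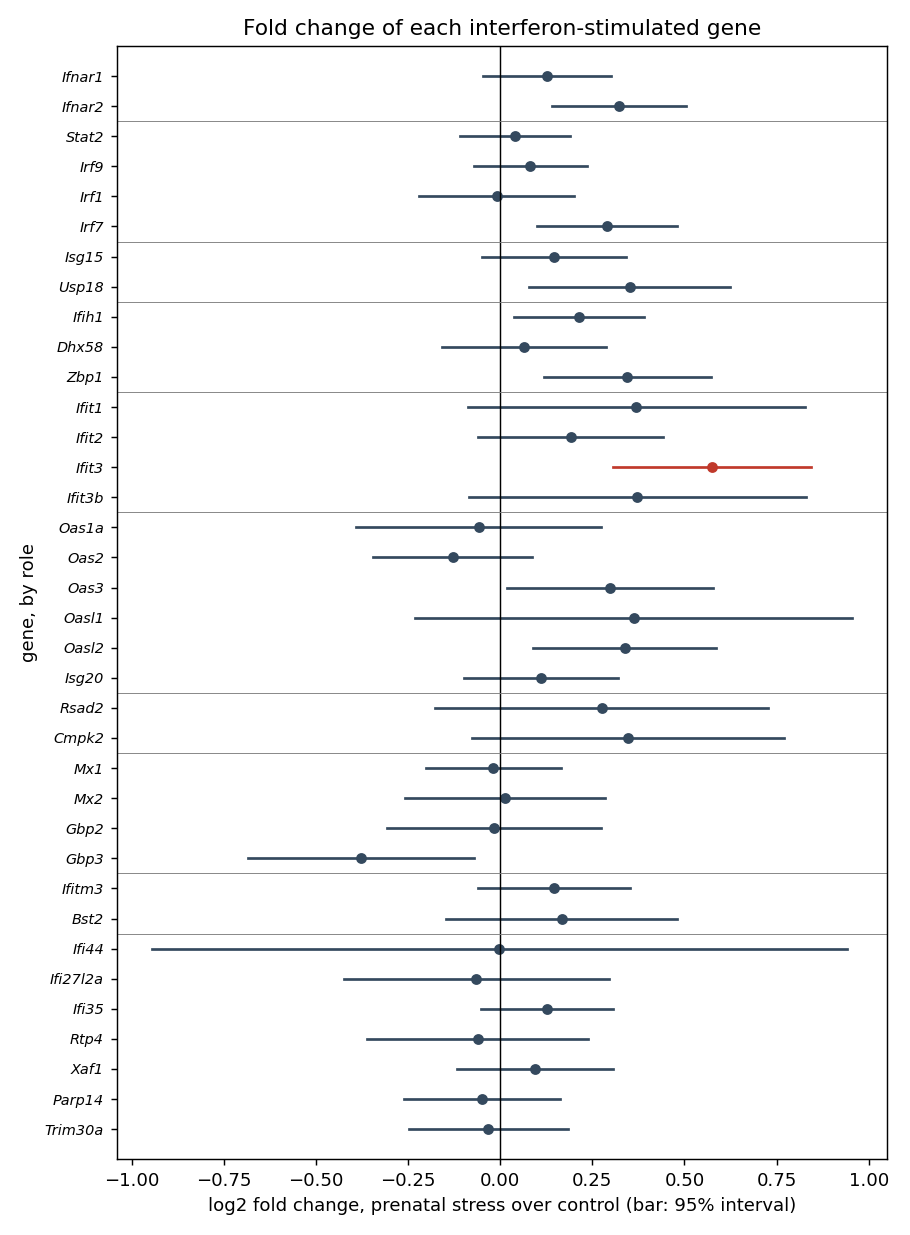
Log2 fold change of prenatal stress over control for each of the 36 genes (x axis; y axis, genes grouped by role), with the 95% interval as a bar. The only red point is Ifit3, the gene that passed the test; the interval of Ifi44 is the widest, from -0.95 to 0.94.

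Levels between genes can be compared only per length, so CPM was divided by the exon length of the gene in kilobases. On that scale the means over the 6 libraries ran from 104 for Ifitm3, a membrane protein that blocks viral entry, to 0.0503 for Ifi44. Ifi27l2a (78.0), Bst2 (76.7) and Isg15 (57.2) followed Ifitm3, and the receptor chains Ifnar1 (42.9) and Ifnar2 (32.7) came next. The low end held Cmpk2 (1.41), Mx2 (1.19) and Ifit3b (0.858) above Ifi44. The list therefore spanned more than 3 orders of magnitude between transcripts of the same libraries. Neighbours named in this order overlapped in their ranges over the 6 libraries except Isg15 with Ifnar1 and Ifit3b with Ifi44; the genes between Ifnar2 and Cmpk2 are left out of this order.

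Among the ligands of the pathway, 14 of the 21 interferon genes in the tables had 0 counts in all 6 libraries, and only Ifnb1, which encodes interferon beta, had enough counts to be tested. Ifnb1 had 81, 119 and 61 counts in the controls and 95, 65 and 172 in the stress libraries. In CPM these were 1.06, 2.02 and 1.07 against 1.88, 1.21 and 3.09, so the groups overlapped and stress library 3 was the highest. The log2 fold change was 0.58 ± 0.37 (SE, n = 3 per group) with an interval from -0.26 to 1.42 and an adjusted p of 0.365; without stress library 3 it was 0.16 (adjusted p = 0.802). Ifng, the gene of interferon gamma, had 11, 1 and 1 counts in the controls and 0 in each stress library, where a count of 0 allows up to 3 counts, or 0.0540 to 0.0595 CPM; it was not tested. The markers of T, natural killer and innate lymphoid cells summed to 12.5, 4.44 and 2.43 CPM in the controls and 2.10, 2.80 and 1.51 CPM under stress, also highest in control library 1, and their part in the Ifng counts was not tested. Ifnb1 and Ifng were singled out after their values were seen.

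Both receptor chains were separate between the groups, by small margins. Ifnar2, the chain that binds interferon most tightly, was at 101, 87.6 and 102 CPM in the controls and 123, 129 and 110.5 CPM in the stress libraries. The groups did not overlap. The means were 96.7 ± 7.88 and 121 ± 9.54 CPM (SD, n = 3), the log2 fold change was 0.32 ± 0.08 (SE), and the adjusted p was 0.0504, just outside the threshold. Without stress library 3 it was 0.38 with an adjusted p of 0.00787, which passed, as did 15.4% of all genes in that fit. Ifnar2 did not pass in edgeR when any other library was left out (adjusted p up to 0.182), where 1.14% to 2.69% of all genes passed. In the annotation used for lengths, 7.09% of the 75-base stretches of Ifnar2 are shared with the overlapping gene model Gm21970. Ifnar1, the other chain, was at 257, 217 and 256 CPM in the controls and 261, 275 and 261 CPM under stress. Its groups did not overlap either, but the margin was small and the log2 fold change of 0.13 ± 0.08 (SE) had an adjusted p of 0.337.

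The factors that carry the signal were close between groups, apart from Irf7. Stat2, a part of ISGF3, was at 41.1, 40.8 and 43.9 CPM in the controls and 46.2, 42.6 and 40.5 under stress (log2 fold change 0.04 ± 0.07, SE; adjusted p = 0.749). Irf9, the DNA-binding part of ISGF3, was at 29.9, 34.0 and 32.9 CPM against 32.6, 34.8 and 35.0 CPM (0.08 ± 0.07; adjusted p = 0.493). Irf1, a factor induced by interferon gamma as well, was at 70.9, 69.4 and 70.8 CPM against 68.1, 61.0 and 80.6 CPM (-0.01 ± 0.09; adjusted p = 0.962). For these 3 genes the groups overlapped, and the 3 controls of Irf1 were closer together than its stress libraries. Irf7, which amplifies interferon production, was at 33.6, 29.6 and 35.7 CPM in the controls and 37.4, 43.2 and 40.4 CPM under stress. Its groups did not overlap, with means of 33.0 ± 3.08 and 40.3 ± 2.90 CPM (SD, n = 3). The log2 fold change of 0.29 ± 0.08 (SE) had an adjusted p of 0.0751 and did not pass.

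Isg15 encodes a ubiquitin-like protein that is attached to other proteins, and Usp18 the protease that removes it and also damps receptor signalling. Isg15 was at 36.8, 40.4 and 46.1 CPM in the controls and 42.6, 46.9 and 46.9 CPM under stress, overlapping, with a log2 fold change of 0.15 ± 0.09 (SE; adjusted p = 0.328). Usp18 was at 4.56, 4.29 and 4.53 CPM in the controls and 4.84, 6.11 and 6.12 CPM under stress. Stress libraries 2 and 3 lay apart from the controls and stress library 1 close to them. The log2 fold change of Usp18 was 0.35 ± 0.12 (SE) with an adjusted p of 0.115. None of the 4 other tested genes of ISG15 conjugation passed.

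The sensors of viral nucleic acid gave values above the controls for 2 of the 3 genes, without passing the test. Zbp1, a sensor of left-handed nucleic acid that can trigger cell death, was at 8.97, 9.70 and 11.1 CPM in the controls and 11.6, 13.4 and 12.7 CPM under stress. Its groups were separate, the log2 fold change was 0.34 ± 0.10 (SE) and the adjusted p 0.0768. Ifih1 encodes MDA5, a sensor of long double-stranded RNA. It was at 20.3, 19.9 and 21.2 CPM against 22.2, 22.8 and 26.1 CPM, separate between groups, with a log2 fold change of 0.21 ± 0.08 (SE; adjusted p = 0.132). Dhx58, which encodes the regulator LGP2, was at 16.0, 16.8 and 19.3 CPM against 16.2, 19.1 and 19.2 CPM and overlapped (0.06 ± 0.10; adjusted p = 0.734).

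The IFIT proteins bind the ends of foreign RNA and block its translation. Their genes form a cluster on chromosome 19, where the start sites of Ifit3 and its near copy Ifit3b lie 24.43 kb apart, in the mouse build GRCm38.p6. The promoter stretches of Ifit3 and Ifit3b are printed here because the called gene and its copy share the same bases. The stretch of Ifit1, which differs, is set beside them. Ifit2 is not printed, and no ISRE core was found in its promoter windows. Capitals mark the ISRE core, searched as GAAANNGAA on both strands and found here as its reverse complement. The Ifit3 stretch is chr19:34583344-34583465, that of Ifit3b is chr19:34607740-34607861 and that of Ifit1 is chr19:34640750-34640843, all on the plus strand and from RefSeq.
Ifit3: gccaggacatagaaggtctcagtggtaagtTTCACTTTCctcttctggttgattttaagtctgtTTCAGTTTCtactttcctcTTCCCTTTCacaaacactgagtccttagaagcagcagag
Ifit3b: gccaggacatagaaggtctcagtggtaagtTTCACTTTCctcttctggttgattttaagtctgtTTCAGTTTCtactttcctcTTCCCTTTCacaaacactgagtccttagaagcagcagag
Ifit1: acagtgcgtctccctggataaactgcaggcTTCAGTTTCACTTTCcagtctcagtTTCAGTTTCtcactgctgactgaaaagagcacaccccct
The 122 bases of Ifit3 and Ifit3b are identical and lie within an identical run of 169 bases of the promoter windows. Each of the 3 stretches holds 3 ISRE cores, and those of Ifit1 include a pair that overlaps.

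Ifit3 was at 7.03, 7.28 and 7.43 CPM in the controls and 8.92, 11.2 and 12.2 CPM in the stress libraries. The controls lay close together and every stress library was above them. The means were 7.25 ± 0.201 and 10.8 ± 1.69 CPM (SD, n = 3), and the log2 fold change was 0.57 ± 0.12 (SE) with an interval from 0.31 to 0.84 and an adjusted p of 0.0285. The call was lost without control library 1 (adjusted p = 0.0894), control 2 (0.12), control 3 (0.0793) or stress library 2 (0.111). It held without stress library 1 (0.0215) and without stress library 3 (0.0206, log2 fold change 0.47). In the fits that lost the call, 2.69%, 1.33%, 2.27% and 1.14% of all genes passed, in the order given, beside 6.19% with all libraries. The share was 2.67% without stress library 1 and 15.4% without stress library 3. Without single libraries the log2 fold change of Ifit3 ran from 0.47 to 0.69.

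Of the 75-base stretches of the annotated Ifit3 transcripts, 41.1% also occur in Ifit3b, and a read that lies within them cannot be placed in either gene. Ifit3b was at 1.21, 1.77 and 1.51 CPM in the controls and 1.78, 1.73 and 2.28 CPM under stress, overlapping (0.37 ± 0.20, SE; adjusted p = 0.289). With the counts of Ifit3 and Ifit3b summed, an alternative added after seeing the data, the log2 fold change was 0.54 and the adjusted p 0.0312. The call held in that sum, in which Ifit3b was the smaller part, at 86 to 127 counts per library beside 422 to 679 for Ifit3. The sum does not recover reads that fit both genes, so it cannot show to which gene they belong.

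The other IFIT genes overlapped between groups, and stress library 3 was the highest in each. Ifit1 was at 3.28, 3.04 and 3.50 CPM in the controls and 3.25, 3.75 and 5.68 CPM under stress (0.37 ± 0.20, SE; adjusted p = 0.29). Ifit2 was at 12.9, 13.4 and 14.7 CPM against 14.4, 14.0 and 18.3 CPM (0.19 ± 0.11; adjusted p = 0.321). Without stress library 3 the log2 fold change was 0.09 for Ifit1 and 0.06 for Ifit2.

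**Figure D2:**
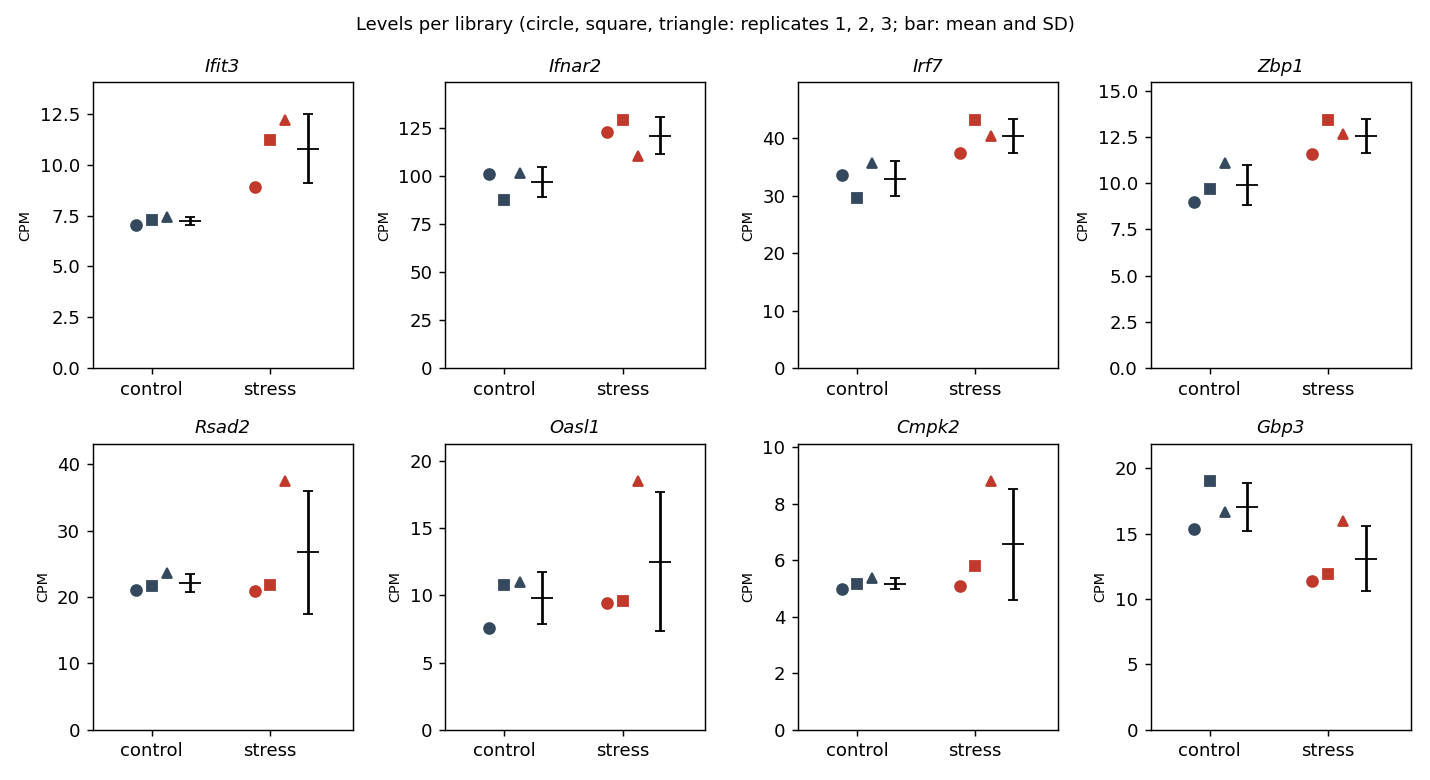
CPM of 8 genes in each library (y axis, from 0; x axis, group), with the mean and SD of each group beside the points and symbols for replicates 1, 2 and 3. The stress points of Ifit3, Ifnar2, Irf7 and Zbp1 all lie above the controls, while in Rsad2 and Oasl1 only the triangle of stress library 3 does, in Cmpk2 that triangle is far above the other points, and in Gbp3 that triangle lies within the range of the controls.

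The OAS enzymes make a short adenylate messenger that activates RNase L, which then cuts viral and cellular RNA. Oas2 was at 48.8, 54.8 and 60.2 CPM in the controls and 50.6, 44.6 and 54.5 CPM under stress (-0.13 ± 0.09, SE; adjusted p = 0.43). Oas1a was at 23.2, 24.3 and 32.2 CPM against 24.5, 22.0 and 30.0 CPM (-0.06 ± 0.15; adjusted p = 0.843). Both overlapped, with control library 3 the highest. Oas1a shares 47.6% of its 75-base stretches with Oas1g, and the summed counts of Oas1a and Oas1g gave -0.07 with an adjusted p of 0.811. Oas3 was at 9.61, 8.76 and 11.9 CPM against 12.2, 13.7 and 11.3 CPM, with a log2 fold change of 0.30 ± 0.12 (SE; adjusted p = 0.178).

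Oasl1 and Oasl2 belong to the same family by sequence but lack the enzyme activity in the case of Oasl1. Oasl2 was at 25.1, 24.1 and 31.6 CPM in the controls and 31.3, 33.6 and 37.0 CPM under stress. Control library 3 reached into the stress range, and the log2 fold change was 0.34 ± 0.11 (SE) with an adjusted p of 0.0998. Without that library Oasl2 passed, with an adjusted p of 0.0466, as did 2.27% of all genes in that fit. It did not pass in edgeR when any other library was left out (adjusted p up to 0.315), where 1.14% to 15.4% of all genes passed. Oasl1 was at 7.54, 10.8 and 11.0 CPM in the controls and 9.46, 9.59 and 18.5 CPM under stress, so that 2 stress libraries lay inside the control range and 1 far above it. Its log2 fold change was 0.36 ± 0.26 (SE; adjusted p = 0.423), and -0.04 without stress library 3. Isg20, an exonuclease of RNA, had means of 8.31 ± 0.801 CPM in the controls and 8.96 ± 0.0508 CPM under stress (SD, n = 3), with all stress libraries inside the control range (0.11 ± 0.09; adjusted p = 0.495).

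Rsad2 encodes viperin, a radical SAM enzyme that makes a chain-terminating nucleotide, and Cmpk2 a nucleotide kinase that supplies its substrate. The genes point away from each other on chromosome 12, with start sites 12.76 kb apart. The Rsad2 stretch, chr12:26456533-26456601 on the minus strand of GRCm38.p6, holds 1 ISRE core and is shown because its gene was among those that stood highest in stress library 3.
Rsad2: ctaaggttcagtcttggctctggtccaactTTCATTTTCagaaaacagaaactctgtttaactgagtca
Rsad2 was at 21.0, 21.6 and 23.7 CPM in the controls and 20.9, 21.8 and 37.5 CPM under stress. Cmpk2 was at 4.99, 5.15 and 5.37 CPM against 5.10, 5.79 and 8.80 CPM. In Rsad2, stress libraries 1 and 2 were within 0.08 of the control mean on the log2 scale, and in both genes stress library 3 was 0.76 above it. The log2 fold changes were 0.28 ± 0.20 (SE; adjusted p = 0.424) for Rsad2 and 0.35 ± 0.19 (adjusted p = 0.287) for Cmpk2, and -0.05 and 0.07 without stress library 3.

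The GTPases of the list gave no call. Mx1 and Mx2 belong to a family of dynamin-like GTPases, members of which trap viral nucleocapsids. The Mx1 allele of C57BL/6 mice is known to give no functional protein, and the function of neither protein was measured here. Mx1 was at 11.0 to 12.7 CPM in the controls and 11.3 to 11.7 CPM under stress (-0.02 ± 0.08, SE; adjusted p = 0.91), and Mx2 at 3.95 to 4.56 against 3.85 to 4.60 CPM (0.01 ± 0.12; adjusted p = 0.958). Gbp2 and Gbp3 are guanylate-binding proteins that coat intracellular pathogens and answer mainly to interferon gamma. Gbp2 was at 13.1, 13.7 and 12.7 CPM against 10.8, 12.4 and 15.8 CPM (-0.02 ± 0.13; adjusted p = 0.953). Its stress libraries lay on both sides of the controls.

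Gbp3 was the gene with the lowest log2 fold change of the list, -0.38 ± 0.14 (SE), with an interval from -0.68 to -0.07 and an adjusted p of 0.129. Its promoter stretch, chr3:142559970-142560043 on the plus strand of GRCm38.p6, ends at the base before the start site and carries 2 ISRE cores that overlap, so the motif was found in genes with values on either side of 0.
Gbp3: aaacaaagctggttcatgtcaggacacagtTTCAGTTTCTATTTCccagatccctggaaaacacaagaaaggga
Gbp3 was at 15.4, 19.0 and 16.7 CPM in the controls and 11.4, 11.9 and 15.9 CPM under stress. Stress libraries 1 and 2 were below all controls and stress library 3 was not. Without stress library 3 the log2 fold change was -0.55 and the adjusted p 0.00678, which passed, as did 15.4% of all genes in that fit. Gbp3 did not pass in edgeR when any other library was left out (adjusted p up to 0.37), where 1.14% to 2.69% of all genes passed.

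Ifitm3 and Bst2 act at membranes: BST2, also called tetherin, holds budding virus at the cell surface. Ifitm3 was at 59.2, 71.1 and 71.2 CPM in the controls and 68.1, 81.6 and 73.1 CPM under stress (0.15 ± 0.09, SE; adjusted p = 0.357). Bst2 was at 53.5, 65.3 and 77.0 CPM against 71.6, 63.7 and 84.5 CPM (0.17 ± 0.14; adjusted p = 0.491). The groups overlapped in both genes, and the control SD of Bst2, 11.8 CPM, exceeded the difference of its means, 65.3 and 73.2 CPM.

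The remaining 7 genes all overlapped between groups, with log2 fold changes from -0.06 (Ifi27l2a and Rtp4) to 0.13 (Ifi35). Parp14, an ADP-ribosyltransferase, was at 90.4, 103 and 106 CPM in the controls and 89.8, 89.8 and 109 CPM under stress. Trim30a, a TRIM protein that damps inflammatory signalling, was at 64.2, 72.6 and 76.1 CPM against 63.9, 65.2 and 79.0 CPM. Ifi27l2a, a small protein of mitochondria, was at 28.8, 39.1 and 43.0 CPM against 29.5, 34.9 and 41.4 CPM. In these 3 genes the lowest and highest library of one group lay near those of the other.
Ifi35, which binds other interferon-induced proteins, was at 16.0, 16.7 and 18.1 CPM in the controls and 17.3, 18.3 and 19.8 CPM under stress (adjusted p = 0.355). Rtp4, a receptor transport protein, was at 10.9, 13.6 and 15.2 CPM against 11.2, 12.6 and 14.1 CPM (adjusted p = 0.818). Xaf1, a factor linked to cell death, ranged from 9.36 to 11.0 CPM against 10.4 to 11.9 CPM (adjusted p = 0.574). Ifi44 was barely detected, with 26, 15 and 19 counts in the controls and 8, 15 and 27 under stress. The 95% interval of its log2 fold change, from -0.95 to 0.94, holds changes of up to nearly 2-fold either way. Exons of Rtp4 overlap those of the gene model Gm45338 on the same strand over 13.9% of their length, and those of Ifi35 overlap Gm11626 on the other strand over 16.8%.

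Read by library and not by gene, the groups overlapped. The median over the 36 genes of the log2 level minus the control mean was -0.09, -0.02 and 0.10 in control libraries 1, 2 and 3, and 0.02, 0.11 and 0.20 in stress libraries 1, 2 and 3. Control library 3 was thus above stress library 1 and close to stress library 2, and the pooled SD within groups was 0.09. In control library 3, 34 of the 36 genes were above the control mean (94.4%, beside 53.5% of all genes tested), against 7 in control library 1 (19.4%, beside 51.2%) and 15 in control library 2 (41.7%, beside 49.7%). In the stress libraries the counts were 19 (52.8%, beside 49.8%), 22 (61.1%, beside 49.4%) and 34 (94.4%, beside 50.2%). No test was made on these medians, since the genes share their libraries.

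**Figure D3:**
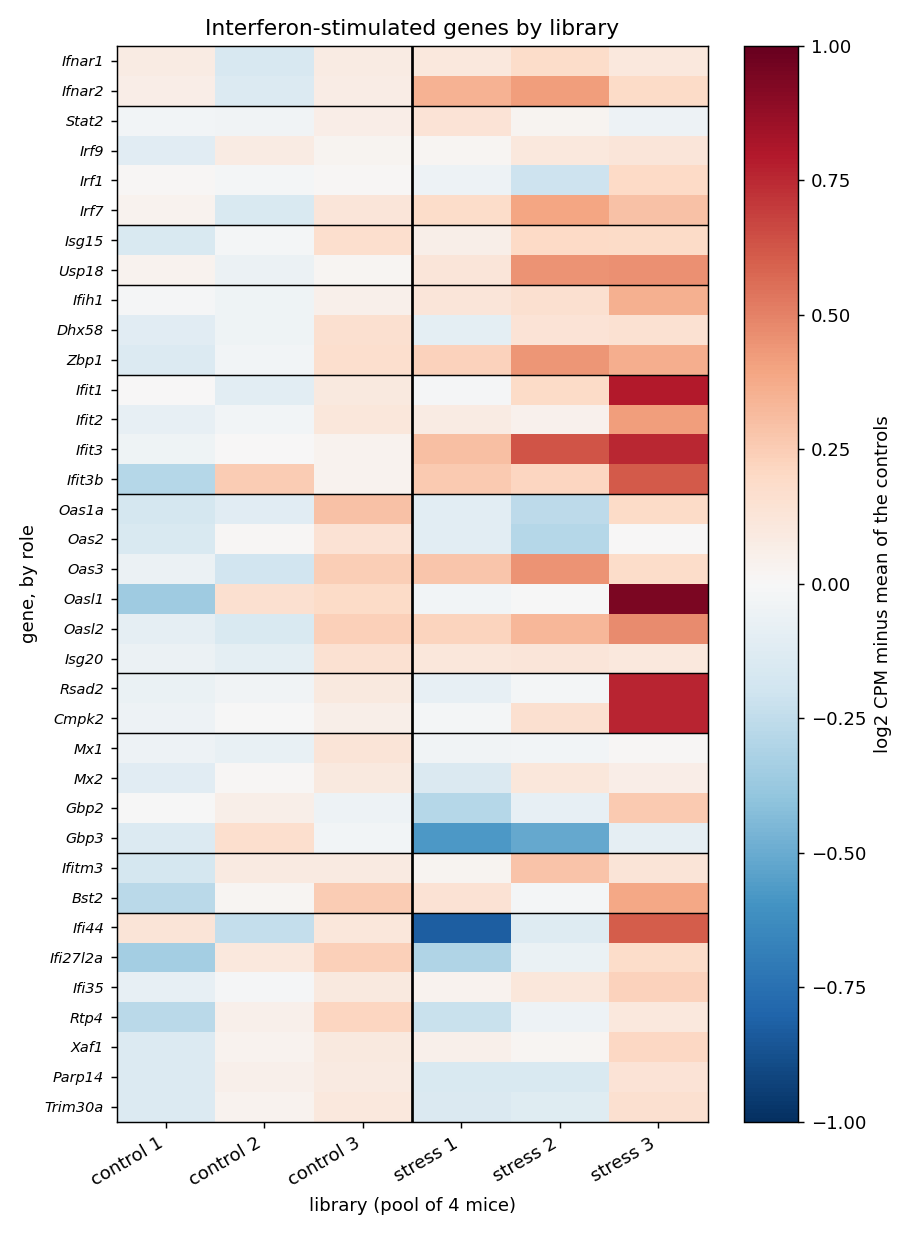
Log2 CPM minus the mean of the controls (color, from -1 to 1) for the 36 genes (y axis, by role) in each library (x axis). Stress library 3 is the darkest red column at the IFIT genes, Oasl1, Rsad2 and Cmpk2, control library 1 is mostly pale blue and control library 3 mostly pale red.

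Stress library 3 held the highest level of 19 of the 36 genes (52.8%, beside 16.2% of all genes tested), and stress library 2 of 8 (22.2%, beside 21.5%). Relative to the control mean on the log2 scale, stress library 3 stood 0.94 higher for Oasl1, 0.79 for Ifit1, 0.76 for Rsad2 and Cmpk2, 0.75 for Ifit3, 0.61 for Ifit3b and 0.42 for Ifit2. These genes are named because they stood high in that library. By role, its median was 0.68 for the 4 IFIT genes and 0.76 for Rsad2 and Cmpk2. The factors and receptor chains were lower, with 0.16 as the median of the 4 transcription factors and 0.15 for the 2 receptor chains. So were other groups, at 0.19 for the OAS family with Isg20, 0.04 for the GTPases and 0.18 for the remaining 7 genes. Membrane factors were at 0.26, Isg15 with Usp18 at 0.32 and the sensors at 0.35. Ifnb1 and the macrophage marker sum were also highest in stress library 3. Without stress library 3, 15.4% of all genes passed the test and 3 of the 36 did: Ifit3 and Ifnar2 higher and Gbp3 lower.

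**Figure D4:**
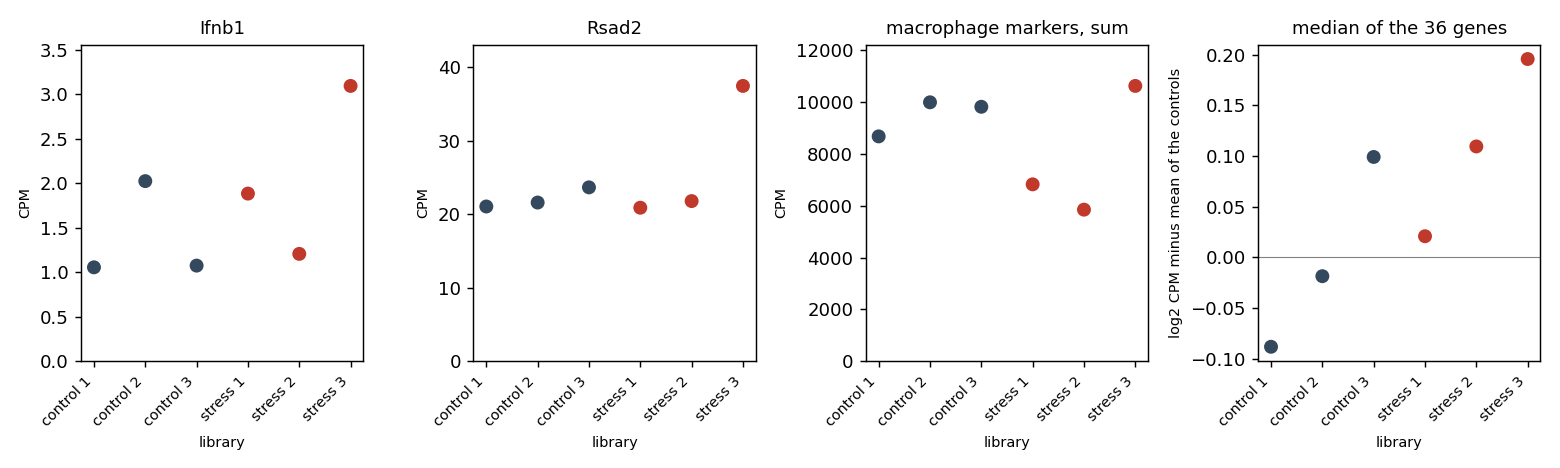
Ifnb1, Rsad2 and the summed macrophage markers in CPM (y axes from 0) and the median over the 36 genes of the log2 level minus the control mean, in each library (x axis; blue, control; red, stress). Stress library 3 is the highest in all 4 panels, while stress libraries 1 and 2 are the lowest in the macrophage panel.

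Since macrophage transcripts were lower in stress libraries 1 and 2 than in every other library, the fit was repeated with the mean log2 level of the 16 macrophage markers as a covariate. With it 5 of the 36 genes rose and none fell, where 5.2% of all genes passed, 3.56% as higher. The 5 were Ifit3 (log2 fold change 0.66, adjusted p = 0.0137), Oasl1 (0.73, 0.00566), Rsad2 (0.53, 0.0161), Cmpk2 (0.56, 0.0385) and Ifit2 (0.33, 0.0438), all by edgeR. With the log2 summed marker level in its place, an alternative added after seeing the data, the same 5 genes passed, with adjusted p from 0.0126 to 0.0498. Stress library 3 is the only one of its group with a macrophage level in the range of the controls or above it, and Oasl1, Rsad2 and Cmpk2 were high in that library. Without stress library 3, a fit added after seeing the data that leaves 2 residual degrees of freedom, 0 of the 36 genes passed in edgeR with the covariate (2 at an unadjusted p under 0.05), where 0.134% of all genes did. The log2 fold changes were then 0.30 for Ifit3, 0.74 for Oasl1, 0.05 for Rsad2, 0.04 for Cmpk2 and 0.26 for Ifit2, and none of the 5 calls held without that library. The part of macrophage RNA in the levels of the list was not tested. Markers of plasmacytoid dendritic cells, cells known for interferon production, summed to 4.86 to 7.76 CPM in the controls and 3.33 to 4.28 CPM under stress, and 1 of the 5 tested, Siglech, was lower.

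The windows from 250 bases before to 50 after the start site were given for 27 of the 36 genes. The ISRE core GAAANNGAA, on either strand, was in 15 of the 27 (55.6%), beside 9.76% of the 27025 genes with a window. The palindromic core TTCNNNGAA, known as the GAS element of interferon gamma targets, was in 9 of the 27 (33.3%), beside 9.55%. Genes with the ISRE core had a median log2 fold change of 0.15 (n = 15) and those without it 0.16 (n = 12). In stress library 3 their medians relative to the control mean were 0.26 and 0.22, and no test was made between them. Of the genes high in that library, Ifit1, Ifit3, Ifit3b and Rsad2 have the core in the window and Oasl1, Cmpk2 and Ifit2 do not.

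Around these 36 genes, 134 other genes of the interferon pathway were tested, from lists of ligands, receptors, signalling proteins, regulatory factors, sensors and further targets. Of them 9 rose and 1 fell, beside 4.34% and 1.85% of all genes, and their median log2 fold change was -0.02. No other receptor chain passed among the 3 tested.

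Further targets of type I interferon made up 7 of the 9 that rose, out of 67 tested, with a median of 0.03. Ly6a, which encodes the surface protein Sca-1, was at 4.43, 3.67 and 4.05 CPM in the controls and 10.6, 12.0 and 12.4 CPM under stress. Its groups lay far apart, with a log2 fold change of 1.53 ± 0.11 (SE) and an adjusted p of 0.000578, and it passed whichever library was left out. Samd9l, an inhibitor of translation and growth, was at 58.5, 53.4 and 57.9 CPM against 77.6, 93.1 and 75.1 CPM (0.53 ± 0.09; adjusted p = 0.0138; 0.0702 without control library 2). Ifi205, a DNA-binding protein of the p200 family, was at 6.45, 7.71 and 7.84 CPM against 10.6, 10.7 and 12.7 CPM (0.63 ± 0.11; adjusted p = 0.0182). Its call was lost without control library 1, control 2 or stress library 2, with adjusted p up to 0.0672, and it shares 16.6% of its 75-base stretches with Ifi211.
Slfn4, a Schlafen protein of myeloid cells, was at 17.0, 17.5 and 24.2 CPM against 31.8, 43.4 and 30.9 CPM (0.86 ± 0.17; adjusted p = 0.0235). Its call was lost without control library 1, control 2, stress library 1 or stress library 2, with adjusted p up to 0.118. In the fits that lost the calls on Samd9l, Ifi205 and Slfn4, 1.14% to 2.69% of all genes passed. In Ly6a, Samd9l, Ifi205 and Slfn4 the groups did not overlap, and only Ly6a and Ifi205 were highest in stress library 3.

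Each of 3 other lists held 1 gene that passed. Irf2, a repressor that competes with IRF1 for its sites, was at 47.4, 40.4 and 46.1 CPM in the controls and 64.0, 67.5 and 57.2 CPM under stress (0.49 ± 0.08, SE; adjusted p = 0.0152), and was the only one of 9 other regulatory factors to pass. Its call was lost without control library 2, stress library 1 or stress library 2, with adjusted p up to 0.0651. Socs1, a feedback inhibitor of JAK kinases, was at 1.12, 1.11 and 1.00 CPM against 1.71, 2.13 and 1.60 CPM (0.75 ± 0.18; adjusted p = 0.0496), 1 of 14 other signalling genes.
Aim2, a sensor of double-stranded DNA in the cytosol, was the only gene of these lists that fell, from 31.6, 35.8 and 34.2 CPM to 25.4, 24.3 and 28.6 CPM (-0.38 ± 0.08; adjusted p = 0.0317), 1 of 16 other sensors and adaptors. The calls on Socs1 and Aim2 held only without stress library 3, and were lost without any of the other 5 libraries (adjusted p up to 0.171 and 0.14). In the fits that lost the calls on Irf2, Socs1 and Aim2, 1.14% to 2.69% of all genes passed, beside 15.4% without stress library 3. None of the 23 other GTPases and partners that answer to interferon gamma passed, and their median was -0.08.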

How the data were processed

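The authors deposited 1 table per library of raw, unscaled read counts by gene symbol. Per the submitters' processing notes the tools included STAR 2.4, HTSeq 0.9.1 and FastQC. For strand setting and annotation release the sources used here give nothing. Of the reads tallied, 79.7% to 81.4% fell in genes; 5 rows naming no gene were left out. Reads with several alignments or in overlapping genes are not counted, so copies are undercounted. Counts were filtered with filterByExpr (minimum count 10), scaled by TMM and tested with edgeR 4.0.16's quasi-likelihood test (R 4.3.3, Benjamini-Hochberg over 16716 genes, threshold 0.05), stress against control, with no covariate. SE is the log2 fold change over the root of F. CPM uses TMM-scaled totals, and log2 levels a prior count of 2. The common biological coefficient of variation was 10.4%. No 2 libraries of a group were identical or within sampling noise. Exon lengths and 75-base stretches come from GENCODE M21, promoters from RefSeq on GRCm38.p6. The test was tried on simulated counts. Alternatives were DESeq2 1.42.0, limma-voom 3.58.1, other scalings and filters, a replicate block, macrophage covariates and leaving out each library. Genes and lists were chosen with earlier results of these data known. Named genes were the members called, the 5 with the highest level per role and copy pairs, here extended to all 36, and from other lists at most 4 called genes with the smallest p. A result on 1 gene is not reported here.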

Additional observations from a re-analysis of the deposited data

How the results depend on the processing

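Of the 36 genes, 1 passed in the reported fit (6.19% of all genes), and between 0 and 3 when 1 library was left out (1.14% to 15.4%). With upper-quartile factors 2 passed (6.48%), with no filter 6 (6.6%), with a stricter filter 2 (9.5%) and with DESeq2 5 (11.9%). The 6 with no filter were Ifit3, Ifnar2, Irf7, Oasl2 and Zbp1 higher and Gbp3 lower. With the macrophage covariate 5 passed (5.2%), and with that from the summed level 5 (4.4%). With the macrophage covariate and without stress library 3, 0 of the 36, 23 of all genes and 0 other pathway genes passed, on 2 residual degrees of freedom. Their median of 0.13 became 0.013 with library totals only, a scaling that moved the median of all genes to -0.12 and left 19 of the 36 above 0; it was 0.06 to 0.18 without single libraries. Over all genes, 1035 passed (725 higher, 310 lower); the count was 2085 with library totals only (553 higher, 1532 lower), 1933 with no filter, 1989 with DESeq2, and 196 to 2647 without single libraries. Of the other pathway genes, 10 passed, against 20 with library totals only (6 higher, 14 lower), 22 with no filter, 22 with DESeq2 and 1 to 38 without single libraries. With the replicate block, 622 of all genes, 1 of the 36 and 6 other pathway genes passed, with a median of 0.13 for the 36; same-numbered libraries did not deviate together (correlations 0.10, -0.02 and 0.07), so the numbers give no pairing. The cause of these shifts was not tested. No direction past the test reversed in any alternative run. Counts were lowest for Ifi44, at 8 to 27 per library, which limits its precision.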
